A study of Homo sapiens with 12 samples.

Results

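The genes described here encode respiratory complex III, its electron carrier cytochrome c, complex IV, the mitochondrial ATP synthase and the assembly factors that carry their names. They were chosen by symbol, as all rows of both count tables that begin with UQCR, UQCC, COX and a digit, or ATP5, together with CYC1 and CYCS. Names with a hyphen or with a pseudogene ending were left out, which removed 3 rows. This gave 57 genes of the 28008 in the tables: 10 subunits of complex III, CYCS, 16 subunits of complex IV, 13 assembly factors, and 17 genes of the ATP synthase group. The tables use older symbols for the ATP synthase, and all 57 genes were matched to a current RefSeq symbol, with 17 renamed. For example, ATP5A1 is now ATP5F1A, ATP5C1 is ATP5F1C and ATP5H is ATP5PD.

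Complex III passes electrons from ubiquinol to cytochrome c and pumps protons out of the mitochondrial matrix. Cytochrome c carries the electrons to complex IV, which reduces oxygen to water, and the ATP synthase lets the protons back in through a rotor whose turning drives ATP formation. Complexes III and IV and the ATP synthase also hold protein encoded by mitochondrial DNA, which was not analysed here, so only the nuclear part is described. Nuclear respiratory genes are known for promoters with sites for NRF1, ETS factors such as GABPA, and YY1.

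The study asked what silencing of MUC1-C, the oncogenic C-terminal subunit of the mucin MUC1, changes in pancreatic neuroendocrine tumor cells. RNA-seq was available for QGP-1/tet-MUC1shRNA cells and for their counterpart BON-1/tet-MUC1shRNA, which are established pancreatic neuroendocrine tumor lines with a doxycycline-inducible hairpin against MUC1. Both were puromycin-selected after vector transduction. The groups were QGP-1 vehicle, QGP-1 DOX, BON-1 vehicle and BON-1 DOX, each with 3 libraries from triplicate cultures, 12 in all. Vehicle was DMSO and DOX was doxycycline at 500 ng/mL for 7 days. QGP-1 cells grew in an RPMI medium and BON-1 cells in a DMEM and F-12 mixture, so that cell line and medium cannot be told apart. No library of DOX-treated cells without the MUC1 hairpin was included here, so the hairpin and DOX itself cannot be told apart. Doxycycline is a tetracycline, and tetracyclines are known to bind mitochondrial ribosomes.

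MUC1 itself fell with DOX in both lines, by 2.91 on the log2 scale in QGP-1 cells and by 2.79 in BON-1 cells, with no overlap between the groups. Total counts ran from 38224144 to 50525926 in QGP-1 libraries and from 15981954 to 28484324 in BON-1 libraries. Of 10 neuroendocrine markers, 10 in QGP-1 and 9 in BON-1 vehicle cells reached 1 CPM (counts scaled to library size) in at least 1 library. With DOX, 1 of 10 tested was lower and 3 higher in QGP-1 cells, beside 17.7% and 17.3% of all genes. In BON-1 cells 3 of 9 were lower and 2 higher, beside 18.3% and 17%. Lower were NCAM1 (log2 fold change -0.51) in QGP-1 and CHGA (-1.46), SYP (-0.34) and PCSK1 (-0.23) in BON-1 cells. Higher were CHGB (0.39), SCG3 (0.34) and SCG5 (0.28) in QGP-1 and SCG2 (0.45) and SCG3 (0.27) in BON-1 cells. Of the acinar, fibroblast, leukocyte and endothelial markers, CPB1, CELA3A, CTRB1, COL1A2, COL3A1, DCN, PTPRC, CD3E, CD14 and CDH5 were too low to be tested in either line. The acinar marker PRSS1 fell in both lines, by 1.83 and 0.75 on the log2 scale, and CPA1, with 2 to 28 counts in BON-1 and 0 in QGP-1 libraries, fell by 1.72 in BON-1 cells, a call lost without vehicle replicate 2 or 3 or DOX replicate 2 (-1.31 without the last). Of the fibroblast markers, COL1A1 fell by 1.16 in QGP-1 cells, a call lost without vehicle replicate 2 (-0.94), and LUM rose by 1.01 in BON-1 cells. The leukocyte marker CD68 rose by 1.00 in BON-1 cells, and the endothelial markers PECAM1 and VWF did not pass where tested. The summed acinar level went from between 82.5 and 151 CPM to between 28.9 and 40.02 CPM with DOX for QGP-1, and for BON-1 from between 36.1 and 45.9 CPM to between 19.6 and 27.0 CPM. The fibroblast sum was between 1.14 and 3.59 CPM and the leukocyte sum between 0.577 and 1.93 CPM in QGP-1 libraries. For BON-1, the fibroblast sum went from between 5.22 and 6.61 CPM to between 10.66 and 11.49 CPM and the leukocyte sum from between 23.7 and 26.4 CPM to between 48.5 and 53.0 CPM. The endothelial sum was at or below 1.48 CPM in all 12 libraries. The small nuclear and cytoplasmic RNAs 7SK and 7SL took 5.37%, 5.94% and 6.38% of counts in QGP-1 vehicle and 4.53%, 3.36% and 3.30% in QGP-1 DOX libraries, without overlap, and 1.35% to 3.77% in BON-1 libraries, where the groups overlapped. The part of these changes in the results below was not tested.

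Promoter sequences are shown for 5 members: UQCRFS1 and COX5B, which fell in both lines, UQCC2, whose response differed between the lines, and COX14 and ATP5C1, which moved in opposite directions. The sequences are the 250 bases before the RefSeq start on build GRCh38.p14, 5′ to 3′ on the strand of the gene. Capitals mark exact matches, on either strand, to the cores searched: GCGCANGC for NRF1, CCGGAAG for ETS factors, AAGATGG for YY1, the E-box CACGTG, the cyclic AMP response element TGACGTCA, and CCAAT. UQCRFS1 lies at chr19:29213152-29213401 (minus strand) and COX5B at chr2:97645812-97646061 (plus). UQCC2 lies at chr6:33711701-33711950 (minus), COX14 at chr12:50111986-50112235 (plus) and ATP5C1 at chr10:7787927-7788176 (plus).
UQCRFS1: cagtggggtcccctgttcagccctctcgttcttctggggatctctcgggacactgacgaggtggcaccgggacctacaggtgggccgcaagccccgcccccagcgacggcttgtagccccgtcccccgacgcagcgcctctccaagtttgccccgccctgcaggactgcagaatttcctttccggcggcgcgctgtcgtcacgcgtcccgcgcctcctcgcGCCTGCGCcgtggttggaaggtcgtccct
COX5B: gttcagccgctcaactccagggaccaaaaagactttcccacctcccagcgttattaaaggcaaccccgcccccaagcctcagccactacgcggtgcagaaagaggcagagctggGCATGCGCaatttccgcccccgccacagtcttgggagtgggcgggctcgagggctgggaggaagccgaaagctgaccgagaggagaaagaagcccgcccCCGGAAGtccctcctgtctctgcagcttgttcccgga
UQCC2: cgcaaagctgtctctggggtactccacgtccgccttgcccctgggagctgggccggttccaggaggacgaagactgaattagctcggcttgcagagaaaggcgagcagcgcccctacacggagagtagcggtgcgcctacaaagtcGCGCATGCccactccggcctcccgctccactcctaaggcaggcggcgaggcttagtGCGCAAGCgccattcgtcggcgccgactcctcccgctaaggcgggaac
COX14: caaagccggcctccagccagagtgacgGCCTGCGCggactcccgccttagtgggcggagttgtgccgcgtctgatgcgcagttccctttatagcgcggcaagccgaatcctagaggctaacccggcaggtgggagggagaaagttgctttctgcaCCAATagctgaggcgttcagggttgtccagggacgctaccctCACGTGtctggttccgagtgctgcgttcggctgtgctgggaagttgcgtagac
ATP5C1: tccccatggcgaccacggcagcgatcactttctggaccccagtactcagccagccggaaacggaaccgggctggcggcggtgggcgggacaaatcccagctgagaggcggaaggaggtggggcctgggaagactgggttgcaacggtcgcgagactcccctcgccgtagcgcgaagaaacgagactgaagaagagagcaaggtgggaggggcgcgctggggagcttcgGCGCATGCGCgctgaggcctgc

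UQCRFS1 and UQCC2 held NRF1 cores and no ETS core in these windows, COX5B held both, and ATP5C1 held an NRF1 core that reads on both strands. COX14 held an NRF1 core, a CCAAT box and an E-box. RefSeq windows of 300 bases, 250 before and 50 after the start, were matched for 43 of the 57 genes, with 53 windows because some genes have several starts. An NRF1 core was present in 43.4% of these 53 windows and in 11.98% of all 35116 windows of the reference. The ETS core was present in 35.8% against 10.3%, the YY1 core in 20.8% against 5.84%, and CCAAT in 41.5% against 34.6%. The E-box was found in 9.43% against 7.26% and the cyclic AMP response element in 3.77% against 1.85%. A match is a description of letters and not a bound site.

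In QGP-1 cells, most of the tested genes of all 3 complexes were lower with DOX. Of the 57 members, 50 had enough counts to be tested, 35 were lower at an adjusted p below 0.05, 1 was higher and 14 passed neither way. The tests were edgeR quasi-likelihood tests across all genes with Benjamini-Hochberg adjustment. Among all 15089 genes tested, 17.7% were lower and 17.3% higher. The median log2 fold change over the tested members was -0.42, beside -0.01 over all genes tested. In BON-1 cells, 49 members were tested, 15 were lower, 8 were higher and 26 passed neither way. There, 18.3% of all 14625 genes tested were lower and 17% higher, and the median was -0.13 for the members and -0.01 for all genes. As these libraries are of bulk RNA, less of a transcript per cell and fewer cells that express it cannot be told apart.

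Part of this pattern moved with gene length. Most of these genes are short, and in QGP-1 cells short genes in general were lower with DOX. Among genes up to 0.25 of the median gene's length, the 984 genes that are no members had a median log2 fold change of -0.26 in QGP-1 cells, and the 21 members of that length had -0.46. Between 0.25 and 0.5 of the median length the values were -0.17 and -0.48, and between 0.5 and 1 they were -0.06 and -0.39. The 2130 other genes above 2 median lengths stood at 0.18. In BON-1 cells the gradient was flatter, with medians of other genes from -0.10 to 0.08. The 21 shortest members stood at -0.04 there, beside -0.06 for other genes of that length. In the longer classes the members stood between -0.22 (1 gene) and -0.03, in each class below the other genes. When the trend on length was taken out of each library, an alternative chosen after seeing the data, 17 members stayed or became lower in QGP-1 cells and 3 higher, while 15.6% and 14.5% of all genes did. In BON-1 cells this left 9 lower and 12 higher, against 17.5% and 17.7% of all genes. Of the 35 members lower in QGP-1 cells, 16 remained so, and of the 14 lower in both lines, 6 did.

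**Figure D1:**
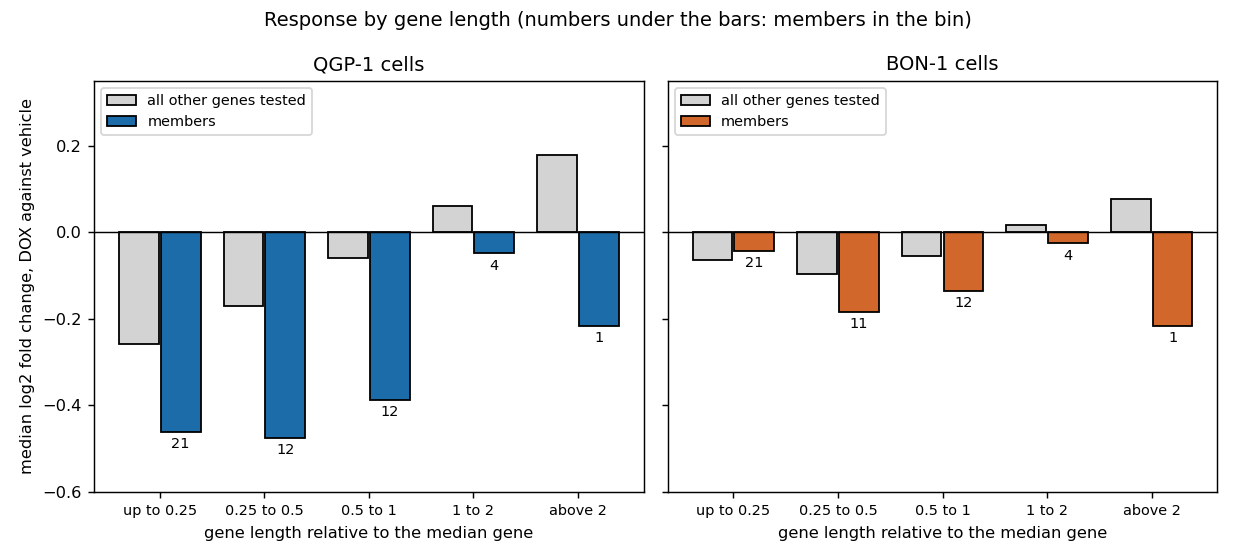
Median log2 fold change of DOX against vehicle (vertical axis) in 5 classes of gene length relative to the median gene (horizontal axis), for members (coloured bars) and for all other genes tested (grey bars). In QGP-1 cells the grey bars run from -0.26 for the shortest genes to 0.18 for the longest, and the members' bars lie below them in each class.

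In QGP-1 cells the 3 complexes showed similar counts. Of the tested genes, 8 of 10 subunits of complex III, 8 of 10 of complex IV and 13 of 16 of the ATP synthase group were lower, and 0 were higher by edgeR, with 0 at an unadjusted p below 0.05 and 0 by DESeq2. Their medians were -0.43, -0.54 and -0.43 on the log2 scale. Of all genes tested, 17.7% were lower and 17.3% higher. Assembly factors stood at a median of -0.12, with 5 of 13 lower and 1 higher. With the length trend removed, the numbers lower became 5, 2, 5 and 4, beside 15.6% of all genes. The numbers higher became 0, 1, 1 and 1, beside 14.5%. The medians became -0.26, -0.06, -0.19 and -0.10. The median of complex IV, whose tested subunits are all shorter than the median gene, moved furthest of these 4 classes.

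In BON-1 cells, 4 of 10 subunits of complex III, 5 of 10 of complex IV and 4 of 16 of the ATP synthase group were lower. Of all genes tested, 18.3% were lower and 17% higher. Higher were 0 of complex III by edgeR (0 at an unadjusted p below 0.05, 0 by DESeq2), 1 of complex IV and 2 of the ATP synthase group. Of the assembly factors, 1 of 12 was lower and 5 were higher, with 6 values below 0 and 6 above. The calls of UQCC1, COX14, COX18 and COX7A2L were each lost when some single library was left out. The class medians were -0.21, -0.26, -0.12 and -0.04. With the length trend removed, 4, 2, 1 and 1 were lower in these 4 classes, beside 17.5% of all genes. The numbers higher were 0, 3, 4 and 5, beside 17.7%. The class medians were then -0.11, -0.10, -0.05 and 0.13. The 14 members lower in both lines make up 40% of those lower in QGP-1 cells and 93.3% of those lower in BON-1 cells. The second share starts from a high base, as 70% of all tested members were lower in QGP-1 cells, against 17.7% of all genes tested. Over all 13535 genes with a test in each line, 978 fell in both, which is 39.5% of those lower in QGP-1 and 39.5% of those lower in BON-1 cells. The 14 were UQCRFS1, UQCRC1, UQCRC2, UQCRQ, CYCS, COX4I1, COX5B, COX6B1, COX7B, COX8A, ATP5A1, ATP5D, ATP5H and ATP5J2.

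**Figure D2:**
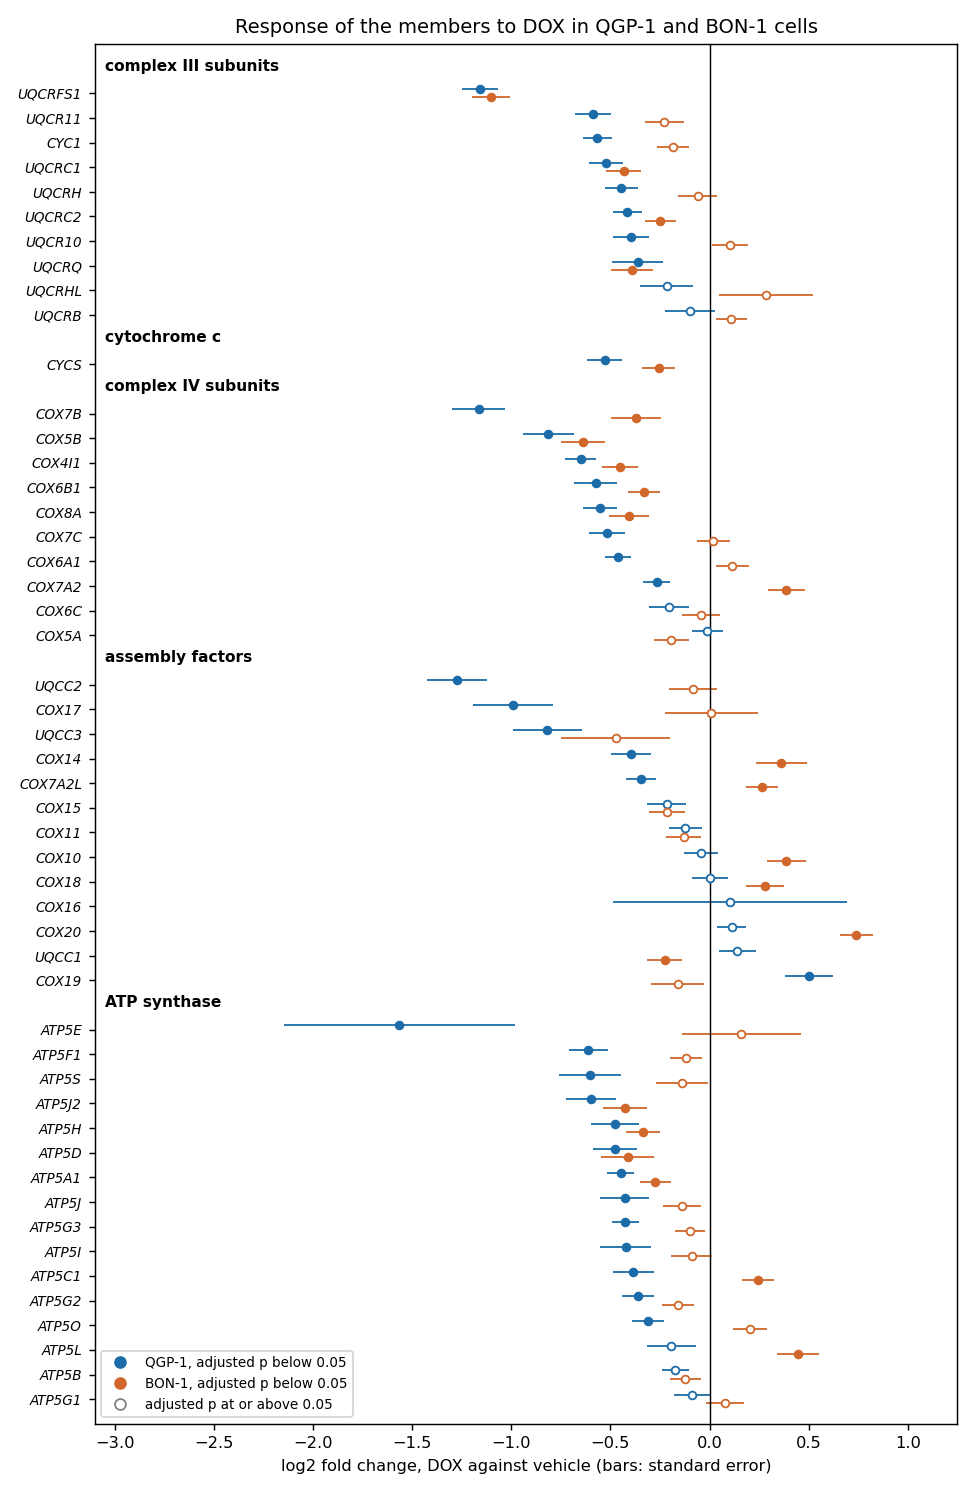
Log2 fold change of DOX against vehicle (horizontal axis) for each tested member, grouped by class, in QGP-1 (blue) and BON-1 cells (orange). Points are estimates from 3 against 3 libraries, bars are standard errors, and filled points have an adjusted p below 0.05. The blue points of the 3 complexes lie left of 0, and UQCRFS1 is at -1.16 in QGP-1 and -1.10 in BON-1 cells.

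UQCRFS1, the Rieske iron-sulfur protein that takes electrons from ubiquinol, had the lowest value of the complex III subunits in both lines. Its levels in QGP-1 vehicle libraries were 95.9, 90.5 and 92.6 CPM, and with DOX they were 36.0, 43.0 and 45.9 CPM. In BON-1 vehicle libraries they were 112, 112 and 104 CPM, and with DOX 54.1, 56.0 and 42.4 CPM. In each line the highest DOX library was far below the lowest vehicle library. The level was 55.2% lower in QGP-1 cells (log2 fold change -1.16, SE 0.09, edgeR adjusted p = 8.67e-07). In BON-1 cells it was 53.4% lower (log2 fold change -1.10, SE 0.09, edgeR adjusted p = 3.56e-10). Without the length trend the values were -0.94 and -1.01, both past the threshold. The gene lies on chromosome 19 (GRCh38, 29205320 to 29213151 on the minus strand in GENCODE v44).

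The 2 core proteins, UQCRC1 and UQCRC2, were lower in both lines as well. The levels of UQCRC1 were 97.01, 87.8 and 79.1 CPM in QGP-1 vehicle, 62.2, 63.6 and 57.7 CPM in QGP-1 DOX, 75.3, 65.6 and 65.7 CPM in BON-1 vehicle and 51.3, 53.5 and 48.6 CPM in BON-1 DOX libraries. The groups overlapped in neither line. Its log2 fold changes were -0.52 (SE 0.08) and -0.43 (SE 0.09). UQCRC2 had -0.41 and -0.25, and both core proteins kept their calls in both lines without the length trend.

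CYC1, cytochrome c1, passes the electrons on to cytochrome c. In QGP-1 vehicle libraries it stood at 95.9, 91.6 and 89.3 CPM and with DOX at 60.1, 62.2 and 64.7 CPM, groups that do not overlap. In BON-1 cells CYC1 was at 92.95, 88.9 and 89.1 CPM with vehicle and at 85.9, 74.3 and 78.3 CPM with DOX, again without overlap. Its log2 fold change was -0.57 in QGP-1 cells (SE 0.07, edgeR adjusted p = 4.97e-05) and -0.18 in BON-1 cells (SE 0.08, edgeR adjusted p = 0.0798). UQCR11 stood at 55.99, 54.4 and 57.3 CPM without and 42.1, 35.5 and 33.95 CPM with DOX in QGP-1 cells, against 46.97, 57.4 and 51.01 CPM without and 49.4, 42.9 and 40.5 CPM with DOX in BON-1 cells. The groups were apart in QGP-1 cells and overlapped in BON-1 cells. Among the small accessory subunits, UQCR11 had -0.59 in QGP-1 cells, and its value of -0.23 in BON-1 cells did not pass (edgeR adjusted p = 0.0721). The levels of UQCRQ were 52.3, 55.2 and 54.6 CPM in QGP-1 vehicle, 32.01, 43.5 and 50.6 CPM in QGP-1 DOX, 40.5, 53.6 and 49.2 CPM in BON-1 vehicle and 40.05, 33.4 and 35.7 CPM in BON-1 DOX libraries. The DOX libraries lay below the vehicle ones in both lines. UQCRQ, which binds cytochrome b, had -0.36 and -0.39 and was called in both lines. Its QGP-1 call was lost when any library but QGP-1 DOX replicate 3 was left out, with -0.19 without QGP-1 DOX replicate 1. Its BON-1 call was lost without BON-1 vehicle replicate 2, at -0.31. The QGP-1 call of UQCRQ also ended once the length trend was removed (-0.19), and the BON-1 call was kept.

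UQCRH, the hinge protein, and its intronless copy UQCRHL share near-identical sequence, so the split of reads between them is uncertain. UQCRH stood at 201, 201 and 235 CPM without and 143, 153 and 171 CPM with DOX in QGP-1 cells, against 94.6, 97.3 and 104 CPM without and 109.6, 99.5 and 74.8 CPM with DOX in BON-1 cells. The levels of UQCRHL were 7.24, 7.06 and 7.92 CPM in QGP-1 vehicle, 6.65, 6.18 and 6.30 CPM in QGP-1 DOX, 4.12, 3.86 and 3.11 CPM in BON-1 vehicle and 3.72, 5.15 and 4.68 CPM in BON-1 DOX libraries. For both genes the groups were apart in QGP-1 cells and overlapped in BON-1 cells. UQCRH was lower in QGP-1 cells (log2 fold change -0.45), and its BON-1 value was -0.06. The QGP-1 value was -0.13 without the length trend and no longer passed (edgeR adjusted p = 0.256). UQCRHL had -0.22 and 0.29, neither past the threshold, and its QGP-1 value turned to 0.23 without the length trend. UQCRB, another small accessory subunit, had -0.10 and 0.11 and passed in neither line. By TPM, which corrects for gene length, UQCRHL took 6.37% ± 0.20 of the pair's sum in QGP-1 vehicle and 7.41% ± 0.81 in QGP-1 DOX libraries (mean ± SD, n = 3).

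CYCS is the soluble carrier that also triggers apoptosis when released from mitochondria. The levels of CYCS were 671, 717 and 862 CPM in QGP-1 vehicle, 541, 493 and 524 CPM in QGP-1 DOX, 425, 512 and 487 CPM in BON-1 vehicle and 436, 368 and 389 CPM in BON-1 DOX libraries. Only the BON-1 groups overlapped. The log2 fold change was -0.53 (SE 0.09, edgeR adjusted p = 0.000348) in QGP-1 and -0.26 (SE 0.08, edgeR adjusted p = 0.018) in BON-1 cells. The BON-1 call was lost without BON-1 vehicle replicate 2 or 3 or BON-1 DOX replicate 2, with -0.21 without vehicle replicate 2. CYCS is longer than the median gene, and without the length trend its values were -0.62 and -0.30. GENCODE lists 42 pseudogenes named after CYCS, which may share reads with it.

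Among complex IV subunits, COX5B and COX4I1 were lower in both lines. COX5B, the zinc-binding subunit, was at 65.3, 67.6 and 67.2 CPM in QGP-1 vehicle and at 28.4, 40.05 and 45.5 CPM in QGP-1 DOX libraries. The BON-1 libraries were at 40.4, 46.8 and 45.4 CPM and then at 33.0, 28.8 and 23.7 CPM. Neither pair of groups overlapped, and QGP-1 DOX replicate 1 was the lowest of its group. The log2 fold changes were -0.81 (SE 0.13) and -0.64 (SE 0.11). Without the length trend, COX5B kept its call in BON-1 cells (-0.43) and lost it in QGP-1 cells (-0.33, edgeR adjusted p = 0.071).

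COX4I1 is the ubiquitous form of the regulatory subunit 4. COX4I1 stood at 84.2, 86.8 and 89.3 CPM without and 57.05, 50.3 and 58.7 CPM with DOX in QGP-1 cells, against 85.95, 84.2 and 82.7 CPM without and 71.9, 58.3 and 55.2 CPM with DOX in BON-1 cells. Vehicle and DOX libraries were apart in both lines. Its log2 fold changes were -0.65 (SE 0.08) and -0.45 (SE 0.09), and both calls held without the length trend, at -0.42 and -0.36. The levels of COX8A were 68.1, 63.2 and 58.2 CPM in QGP-1 vehicle, 45.8, 42.4 and 40.8 CPM in QGP-1 DOX, 94.2, 71.8 and 69.2 CPM in BON-1 vehicle and 62.8, 57.6 and 57.7 CPM in BON-1 DOX libraries. COX6B1 stood at 134, 141 and 157 CPM without and 116, 83.6 and 89.7 CPM with DOX in QGP-1 cells, against 144, 134 and 129.8 CPM without and 119, 102 and 103 CPM with DOX in BON-1 cells. Neither gene's groups overlapped in either line. COX8A, the ubiquitous subunit 8, had -0.55 and -0.41, and COX6B1, the somatic subunit 6B, had -0.57 and -0.33. Both lost their calls in both lines without the length trend, COX8A with values of -0.08 and -0.20.

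COX7B, a small accessory subunit, was at 33.0, 42.0 and 41.5 CPM in QGP-1 vehicle and at 17.0, 14.1 and 20.8 CPM in QGP-1 DOX libraries, without overlap. The BON-1 libraries were at 22.7, 31.8 and 32.2 CPM with vehicle and at 21.2, 20.6 and 24.9 CPM with DOX, and these groups overlapped. The log2 fold changes were -1.16 (SE 0.13) and -0.37 (SE 0.13). The BON-1 call was lost without any 1 of 4 libraries, vehicle replicates 2 and 3 and DOX replicates 1 and 2, with -0.30 without vehicle replicate 2. The levels of COX6A1 were 472, 463 and 489 CPM in QGP-1 vehicle, 362, 321 and 351 CPM in QGP-1 DOX, 414, 401 and 447 CPM in BON-1 vehicle and 499, 405 and 463 CPM in BON-1 DOX libraries. COX7C stood at 154, 159.7 and 197 CPM without and 124, 110.0 and 122 CPM with DOX in QGP-1 cells, against 117, 126 and 110.2 CPM without and 129, 106 and 122 CPM with DOX in BON-1 cells. For both genes the groups were apart in QGP-1 cells and overlapped in BON-1 cells. COX6A1 and COX7C were lower in QGP-1 cells, at -0.46 and -0.52, and stood at 0.12 and 0.02 in BON-1 cells, neither past the threshold. With that trend removed neither was called in QGP-1 cells, at -0.04 and 0.08, and both were called higher in BON-1 cells, at 0.30 and 0.28 (edgeR adjusted p = 0.00383 and 0.00887). COX7B then kept its QGP-1 call and lost that in BON-1 cells (-0.12). COX5A, at -0.01, and COX6C, at -0.20, did not pass in QGP-1 cells. COX5A was called higher there without the length trend, at 0.31 (edgeR adjusted p = 0.00652), and COX6C stood at 0.07.

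The tissue forms of complex IV subunits were near silent. COX6A2 and COX7A1, the heart and muscle forms, and COX8C, a testis form, had 0 counts in all 12 libraries, which allows at most 3 counts in a library, or 0.0594 to 0.188 CPM. COX4I2, the lung form of subunit 4, had 2 counts in all libraries together and COX7B2, a testis form, had 1. COX6B2, another testis form, had 35 counts, with 15 in QGP-1 vehicle and 18 in QGP-1 DOX libraries. None of the 6 could be tested.

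Assembly factors held large changes in both directions. UQCC2 works with UQCC1 as a chaperone of newly made cytochrome b, the mitochondrially encoded core of complex III. UQCC2 was at 28.1, 33.0 and 36.4 CPM in QGP-1 vehicle and at 15.8, 9.8 and 14.7 CPM in QGP-1 DOX libraries. BON-1 values were 26.2, 33.7 and 29.4 CPM with vehicle and 32.7, 24.4 and 27.3 CPM with DOX. The QGP-1 groups were apart and the BON-1 groups overlapped. The level was 58.6% lower in QGP-1 cells (log2 fold change -1.27, SE 0.15, edgeR adjusted p = 3.23e-05), and the BON-1 value was -0.08 (SE 0.12, edgeR adjusted p = 0.623). UQCC3 stood at 8.65, 6.96 and 5.61 CPM without and 3.90, 4.005 and 4.11 CPM with DOX in QGP-1 cells, against 4.62, 4.26 and 4.45 CPM without and 3.08, 4.68 and 1.83 CPM with DOX in BON-1 cells. There was overlap in BON-1 and none in QGP-1 cells. UQCC3, another early factor of complex III, had -0.82 in QGP-1 cells and -0.47 with an SE of 0.28 in BON-1 cells, where it did not pass. The levels of UQCC1 were 23.9, 25.98 and 27.01 CPM in QGP-1 vehicle, 29.9, 26.01 and 28.8 CPM in QGP-1 DOX, 56.98, 51.3 and 53.01 CPM in BON-1 vehicle and 47.2, 46.8 and 44.02 CPM in BON-1 DOX libraries. The groups overlapped in QGP-1 cells and were apart in BON-1 cells. The log2 value of UQCC1 was 0.14 in QGP-1 cells, and its BON-1 call at -0.23 missed the threshold once any single library was left out, at -0.18 without BON-1 vehicle replicate 1. It was also lost without the length trend, at -0.17.

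Factors of complex IV split in both directions. The levels of COX17 were 6.11, 6.39 and 4.28 CPM in QGP-1 vehicle, 2.43, 2.84 and 3.16 CPM in QGP-1 DOX, 4.58, 5.59 and 3.33 CPM in BON-1 vehicle and 5.26, 4.47 and 3.97 CPM in BON-1 DOX libraries. QGP-1 groups were apart and BON-1 groups overlapped. COX17, the copper chaperone of the intermembrane space, had a log2 fold change of -0.99 (SE 0.20) in QGP-1 cells and 0.01 (SE 0.24) in BON-1 cells, from 60 to 276 counts a library. Its QGP-1 value was -0.41 without the length trend and did not pass. COX19, which works in copper delivery with COX11, was the 1 member called higher in QGP-1 cells. COX19 stood at 9.23, 8.58 and 8.38 CPM without and 11.03, 13.1 and 12.9 CPM with DOX in QGP-1 cells, against 15.8, 15.7 and 15.2 CPM without and 15.1, 13.6 and 13.2 CPM with DOX in BON-1 cells. No DOX library fell within the vehicle range in either line. The QGP-1 difference passed the test (log2 fold change 0.50, SE 0.12, edgeR adjusted p = 0.00527), and the BON-1 value was -0.16. On TPM values relative to the median gene the COX19 value in QGP-1 cells was -0.03. COX11, which brings copper to subunit 1, and COX15, which makes haem A, passed in neither line, with -0.12 and -0.22 in QGP-1 and -0.13 and -0.22 in BON-1 cells. COX15 was called lower in both without the length trend, at -0.36 and -0.28 (edgeR adjusted p = 0.0193 and 0.0155).

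COX20, a chaperone of subunit 2, had the largest rise in BON-1 cells. It was at 62.4, 70.7 and 67.8 CPM with vehicle and at 118, 105 and 112 CPM with DOX. In QGP-1 cells the values were 74.7, 77.5 and 83.5 CPM and then 84.5, 84.0 and 86.2 CPM. The rise in BON-1 cells was 67.1% (log2 fold change 0.74, SE 0.08, edgeR adjusted p = 5.34e-08), and the QGP-1 value of 0.11 did not pass. The levels of COX10 were 39.00, 42.7 and 38.4 CPM in QGP-1 vehicle, 42.4, 36.5 and 37.7 CPM in QGP-1 DOX, 50.2, 39.8 and 45.4 CPM in BON-1 vehicle and 56.9, 55.2 and 65.1 CPM in BON-1 DOX libraries. The groups overlapped in QGP-1 cells and were apart in BON-1 cells. COX10, which makes haem O, rose in BON-1 cells by 0.39 on the log2 scale. COX18, an insertase for the tail of subunit 2, had 0.28 there, a call lost without BON-1 vehicle replicate 2 or 3 or BON-1 DOX replicate 1, with 0.20 without the last. COX10 was at -0.04 in QGP-1 cells and COX18 within 0.01 of 0.

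**Figure D3:**
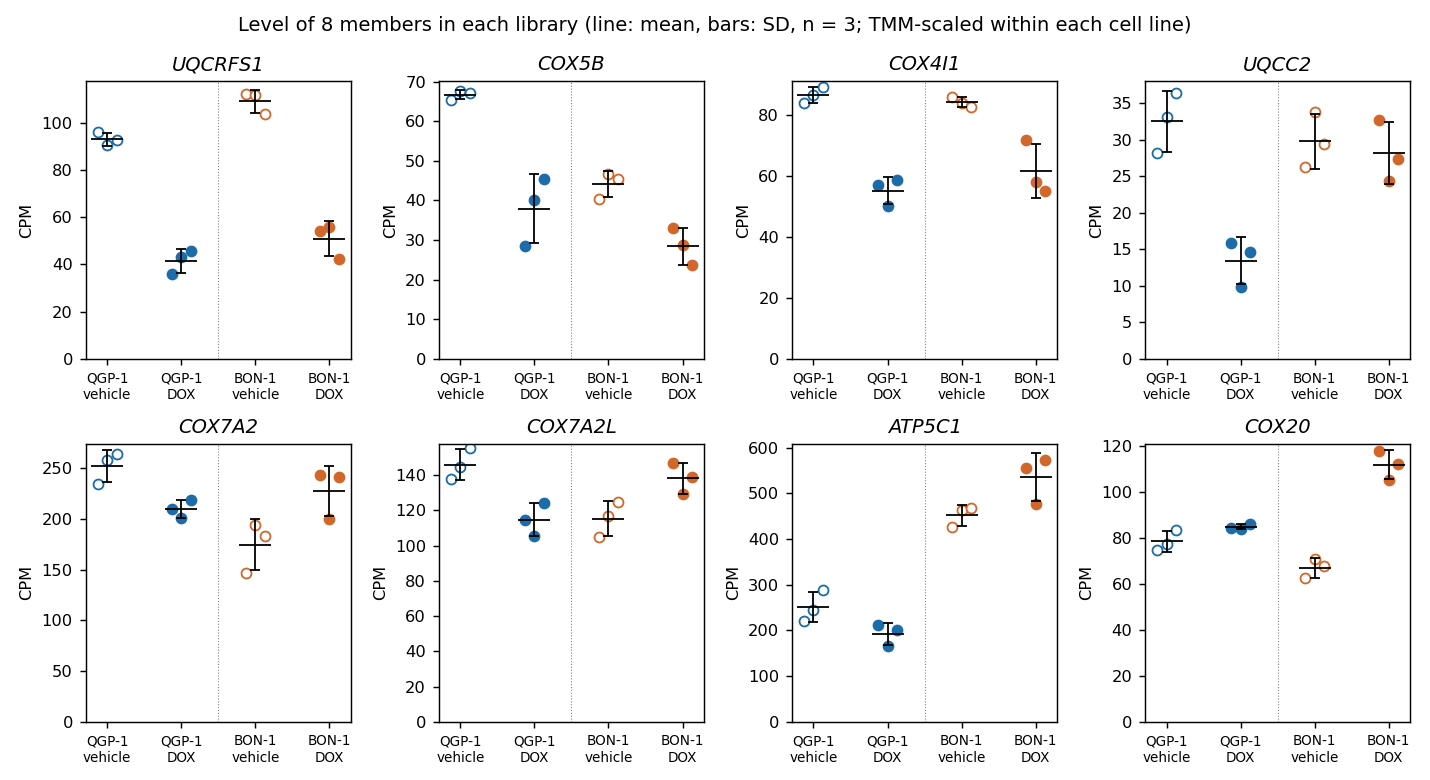
Levels of 8 members in CPM (vertical axis, from 0) in each of the 12 libraries, by group (horizontal axis). Open points are vehicle and filled points DOX libraries, long marks are means and bars are SD (n = 3). UQCRFS1 is lower with DOX in both lines, UQCC2 in QGP-1 cells, and COX20 is higher in BON-1 cells.

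In the ATP synthase group, the F1 head and central stalk held members with different responses. ATP5A1 encodes the alpha subunit of F1. ATP5A1 stood at 493, 488 and 526 CPM without and 363, 350.1 and 392 CPM with DOX in QGP-1 cells, against 246, 229 and 212 CPM without and 203, 189 and 177 CPM with DOX in BON-1 cells. In each line the DOX libraries were all below the vehicle ones. The log2 fold changes were -0.45 (SE 0.07) and -0.27 (SE 0.08), and both calls held without the length trend. ATP5B, the catalytic beta subunit, had -0.17 and -0.12 and passed in neither line. The levels of ATP5D were 31.4, 27.2 and 23.95 CPM in QGP-1 vehicle, 18.97, 21.5 and 18.8 CPM in QGP-1 DOX, 21.1, 22.04 and 17.00 CPM in BON-1 vehicle and 15.7, 16.3 and 13.3 CPM in BON-1 DOX libraries. The groups overlapped in neither line. ATP5D, the delta subunit, had -0.48 and -0.41, and both calls were lost without the length trend, at -0.22 and -0.31. The BON-1 call of ATP5D was lost without BON-1 vehicle replicate 1 or 2 or BON-1 DOX replicate 3, with -0.35 without vehicle replicate 2.

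ATP5E, the epsilon subunit, had only 4 to 98 counts in QGP-1 libraries, and its value of -1.56 in QGP-1 cells had an SE of 0.58. The counts were 47, 98 and 43 in QGP-1 vehicle and 4, 29 and 29 in QGP-1 DOX libraries, and 76, 69 and 36 and then 59, 56 and 41 in BON-1 cells. Its call was lost without QGP-1 vehicle replicate 1 or 2 or QGP-1 DOX replicate 1 or 3, with -1.09 without vehicle replicate 2, and it was lost without the length trend, at -0.99. The levels of ATP5S were 9.89, 12.6 and 14.6 CPM in QGP-1 vehicle, 7.504, 7.45 and 9.55 CPM in QGP-1 DOX, 16.5, 22.5 and 21.00 CPM in BON-1 vehicle and 19.1, 16.8 and 18.5 CPM in BON-1 DOX libraries. The groups were apart in QGP-1 cells and overlapped in BON-1 cells. ATP5S, coupling factor B, which is no subunit of the enzyme, had -0.60 in QGP-1 and -0.14 in BON-1 cells.

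Of the peripheral stalk, which holds F1 still against the rotor, ATP5F1 encodes subunit b. ATP5F1 stood at 217, 233 and 282 CPM without and 172, 139.7 and 167 CPM with DOX in QGP-1 cells, against 289.8, 329.7 and 326 CPM without and 322, 265 and 284 CPM with DOX in BON-1 cells. Only the BON-1 groups overlapped. Its log2 fold change was -0.61 (SE 0.10) in QGP-1 cells and -0.12 (SE 0.08) in BON-1 cells. The levels of ATP5H were 197, 195 and 236 CPM in QGP-1 vehicle, 186, 127 and 138 CPM in QGP-1 DOX, 92.9, 95.2 and 93.8 CPM in BON-1 vehicle and 83.7, 72.6 and 67.3 CPM in BON-1 DOX libraries. Vehicle and DOX libraries were apart in both lines. ATP5H (subunit d) was lower in both lines, at -0.48 and -0.34. ATP5O stood at 178, 179.7 and 206 CPM without and 164, 139 and 151 CPM with DOX in QGP-1 cells, against 189.8, 231 and 231 CPM without and 257, 226 and 268 CPM with DOX in BON-1 cells. There was overlap in BON-1 and none in QGP-1 cells. ATP5O, the oligomycin sensitivity protein that joins the stalk to F1, had -0.31 and 0.21, the second short of the threshold at an edgeR adjusted p of 0.0611. With the length trend removed ATP5O was at -0.01 and not called in QGP-1 cells, and at 0.33 it was called higher in BON-1 cells (edgeR adjusted p = 0.00358). The levels of ATP5J2 were 53.8, 62.7 and 60.4 CPM in QGP-1 vehicle, 47.2, 30.8 and 38.8 CPM in QGP-1 DOX, 35.8, 40.6 and 34.5 CPM in BON-1 vehicle and 31.8, 24.7 and 26.2 CPM in BON-1 DOX libraries. ATP5L stood at 28.4, 29.5 and 34.00 CPM without and 22.8, 25.2 and 32.5 CPM with DOX in QGP-1 cells, against 29.2, 33.8 and 28.3 CPM without and 46.1, 41.1 and 37.4 CPM with DOX in BON-1 cells. ATP5J2 was apart in both lines, and ATP5L overlapped in QGP-1 cells and was apart in BON-1 cells. In the membrane part, ATP5J2 (subunit f) had -0.60 and -0.43, and ATP5L (subunit g) had -0.19 and 0.45. ATP5J (coupling factor 6 of the stalk) and ATP5I (subunit e) were lower in QGP-1 cells, at -0.43 and -0.42, and had -0.14 and -0.09 in BON-1 cells. The QGP-1 call of ATP5J was lost without QGP-1 vehicle replicate 3 or DOX replicate 2, at -0.29 without the latter. That of ATP5I was lost without any 1 of 4 libraries, QGP-1 vehicle replicates 2 and 3 and DOX replicates 2 and 3, and was -0.31 without vehicle replicate 3. The QGP-1 call of ATP5J was lost at -0.29 without the length trend, and ATP5I then turned to 0.27 in QGP-1 (edgeR adjusted p = 0.11) and 0.23 in BON-1 cells, neither past the threshold. Likewise, ATP5H and ATP5J2 lost their calls in both lines.

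Subunit c, which forms the rotor ring, is encoded by 3 genes that give the same mature protein. By TPM within each library, ATP5G1 made 52.9% ± 1.8 of the sum in QGP-1 vehicle and 58.2% ± 1.3 in QGP-1 DOX libraries (mean ± SD, n = 3). ATP5G3 went from 28.2% ± 0.6 to 24.6% ± 1.7 and ATP5G2 from 18.9% ± 1.4 to 17.2% ± 1.2. For ATP5G1 and ATP5G3 the vehicle and DOX shares did not overlap, with an exact two-sided permutation p of 0.1, the smallest that 3 against 3 libraries can give. In BON-1 cells ATP5G1 went from 60.6% ± 2.7 to 63.9% ± 1.4, with overlap. The levels of ATP5G1 were 36.7, 40.4 and 42.4 CPM in QGP-1 vehicle, 39.97, 33.9 and 38.6 CPM in QGP-1 DOX, 44.8, 53.7 and 49.7 CPM in BON-1 vehicle and 58.2, 46.9 and 51.6 CPM in BON-1 DOX libraries. ATP5G2 stood at 104, 98.3 and 98.2 CPM without and 86.7, 73.9 and 73.5 CPM with DOX in QGP-1 cells, against 94.7, 86.6 and 91.01 CPM without and 84.8, 81.6 and 77.5 CPM with DOX in BON-1 cells. The levels of ATP5G3 were 187, 186 and 199.7 CPM in QGP-1 vehicle, 137, 139 and 151 CPM in QGP-1 DOX, 175, 175 and 165 CPM in BON-1 vehicle and 167, 146 and 168 CPM in BON-1 DOX libraries. On the count scale in QGP-1 cells, ATP5G3 and ATP5G2 were lower, at -0.43 and -0.36, and ATP5G1 at -0.09 was not called. ATP5G1 was, without the length trend, called higher in both lines, at 0.29 in QGP-1 and 0.24 in BON-1 cells.

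The balance between complexes was compared by summed CPM within each library, a measure led by the members with most counts. In QGP-1 cells, the sum over complex III subunits was 0.319 ± 0.008 of the sum over the ATP synthase group with vehicle and 0.295 ± 0.020 with DOX. In BON-1 cells it was 0.334 ± 0.001 and 0.289 ± 0.020. For complex IV subunits the ratio was 0.539 ± 0.011 and 0.508 ± 0.012 in QGP-1 cells, and 0.521 ± 0.003 and 0.523 ± 0.017 in BON-1 cells. The groups did not overlap except for complex IV in BON-1 cells, and each exact two-sided permutation p was then 0.1, the smallest possible. These sums were not corrected for the trend on gene length. In QGP-1 cells the median log2 fold changes of complex III, complex IV and the ATP synthase group were -0.43, -0.54 and -0.43. With that trend removed they were -0.26, -0.06 and -0.19, so that complex IV no longer stood below the ATP synthase group.

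The response differed between the lines for 19 of 51 members in the edgeR test of the interaction. For 17 of them the log2 fold change was higher in BON-1 than in QGP-1 cells, and for 2 it was lower. Among all 16598 genes tested, 8.8% had a higher and 7.92% a lower response in BON-1 cells. Without the length trend, 12 members were called higher and 4 lower, against 8.9% and 7.36% of all genes, and the 12 were among the 17. The 5 that were lost were CYC1, COX7B, COX7C, COX17 and ATP5O, and COX5A (-0.38) and UQCC1 (-0.37) were newly called lower. The largest difference with a well counted gene was that of UQCC2, at 1.20 (SE 0.21, edgeR adjusted p = 0.00026), and it held at 1.09 without the length trend. The levels of UQCR10 were 34.1, 40.2 and 37.96 CPM in QGP-1 vehicle, 28.2, 27.8 and 29.3 CPM in QGP-1 DOX, 61.95, 76.2 and 72.6 CPM in BON-1 vehicle and 81.6, 72.5 and 72.1 CPM in BON-1 DOX libraries. QGP-1 groups were apart and BON-1 groups overlapped. UQCR10, a small accessory subunit of complex III, differed by 0.51 (SE 0.13), and its QGP-1 call at -0.40 was lost without the length trend (-0.13). COX17 had 1.01 (SE 0.32) and COX7B 0.81 (SE 0.20). The COX17 call was also lost when any 1 of 8 libraries was left out, with 0.88 without BON-1 DOX replicate 1.

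**Figure D4:**
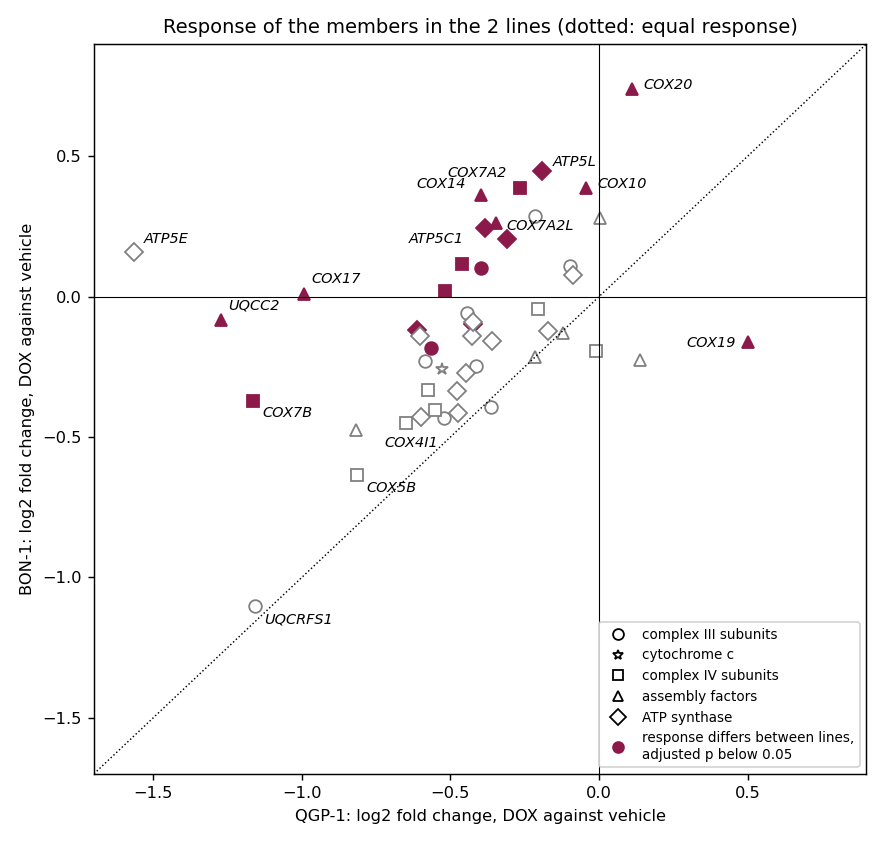
Log2 fold change of DOX against vehicle in QGP-1 (horizontal axis) and BON-1 cells (vertical axis) for each member tested in both lines, with symbols by class. Filled symbols mark members whose response differed between the lines at an adjusted p below 0.05, and the dotted line marks equal responses. Filled symbols other than COX19 lie above the line, and UQCRFS1 lies close to it.

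In all, 4 members were called in opposite directions, lower in QGP-1 and higher in BON-1 cells, as were 1.5% of all genes with a test in each line. They were COX7A2, COX7A2L, COX14 and ATP5C1. COX7A2L, which joins complexes III and IV in a supercomplex, was at 138, 145 and 155 CPM in QGP-1 vehicle and at 115, 106 and 124 CPM in QGP-1 DOX libraries. In BON-1 cells it was at 105, 117 and 125 CPM and then at 147, 129 and 139 CPM. Neither pair of groups overlapped. The log2 fold changes were -0.35 (SE 0.08) and 0.26 (SE 0.08), with a difference of 0.62 (SE 0.11, edgeR adjusted p = 0.000509). It was the 1 gene of these 4 with both calls kept without the length trend, at -0.32 and 0.29. The BON-1 call was lost without BON-1 vehicle replicate 1 or BON-1 DOX replicate 1, with 0.21 without the latter.

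COX7A2 is the widely expressed form of subunit 7A. COX7A2 stood at 234, 258 and 265 CPM without and 209.7, 201 and 218 CPM with DOX in QGP-1 cells, against 146, 194 and 183 CPM without and 243, 199.7 and 241 CPM with DOX in BON-1 cells. No DOX library fell within the vehicle range in either line. Its log2 fold changes were -0.27 and 0.39. ATP5C1, the gamma subunit that forms the rotating shaft, was at 222, 245 and 288 CPM and then 211, 166 and 201 CPM in QGP-1 cells. BON-1 values were 426, 464 and 468 CPM and then 556, 476 and 574 CPM. The log2 fold changes of ATP5C1 were -0.38 (SE 0.10) and 0.24 (SE 0.08). Its BON-1 call was lost without vehicle replicate 1 or 3 or DOX replicate 1 or 3 of that line, with 0.17 without DOX replicate 3.

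The levels of COX14 were 23.8, 24.3 and 27.6 CPM in QGP-1 vehicle, 19.96, 17.9 and 19.7 CPM in QGP-1 DOX, 20.5, 25.6 and 18.1 CPM in BON-1 vehicle and 30.9, 24.1 and 27.8 CPM in BON-1 DOX libraries. COX14, a partner of newly made subunit 1, had -0.40 and 0.36. Its groups were apart in QGP-1 cells and overlapped in BON-1 cells, where the call was lost without vehicle replicate 1 or 3 or DOX replicate 1 or 3, with 0.25 without vehicle replicate 3. Without the length trend the QGP-1 values of COX7A2, COX14 and ATP5C1 were 0.06, -0.14 and -0.16, none past the threshold.

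Before silencing, 23 of 51 tested members were lower (45.1%) and 12 higher (23.5%) in BON-1 than in QGP-1 vehicle cells, while 37.5% of all 16598 genes tested were lower and 37.5% higher. With the length trend removed 16 were lower and 16 higher, against 35.4% and 39.8% of all genes. ATP5H was at 202, 199.99 and 242 CPM in QGP-1 and at 91.2, 92.6 and 90.1 CPM in BON-1 vehicle libraries, all scaled together. The difference was -1.23 on the log2 scale (SE 0.11, edgeR adjusted p = 2.5e-10). ATP5A1 was at 505, 501 and 540.1 CPM in QGP-1 and at 241, 223 and 204 CPM in BON-1 vehicle libraries. UQCRH was at 206, 206 and 241 CPM in QGP-1 and at 92.8, 94.6 and 99.5 CPM in BON-1 vehicle libraries. ATP5A1 had -1.21 (SE 0.08), UQCRH had -1.19 (SE 0.10) and UQCRHL had -1.07 (SE 0.18). No vehicle group of these genes overlapped its counterpart.

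Members of the same complex went both ways. ATP5C1 was higher in BON-1 cells by 0.77, UQCR10, a small subunit beside cytochrome c1, by 0.83 and UQCC1 by 0.99. CYCS had -0.74. ATP5L2, a copy of the subunit g gene, had 3.47 but only 0, 2 and 3 counts in QGP-1 and 11, 8 and 13 in BON-1 vehicle libraries. COX16 had 15, 24 and 26 counts in QGP-1 vehicle, 52, 9 and 11 in QGP-1 DOX, 25, 23 and 9 in BON-1 vehicle and 1, 3 and 0 in BON-1 DOX libraries, and overlaps its neighbour SYNJ2BP on the same strand.

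**Figure D5:**
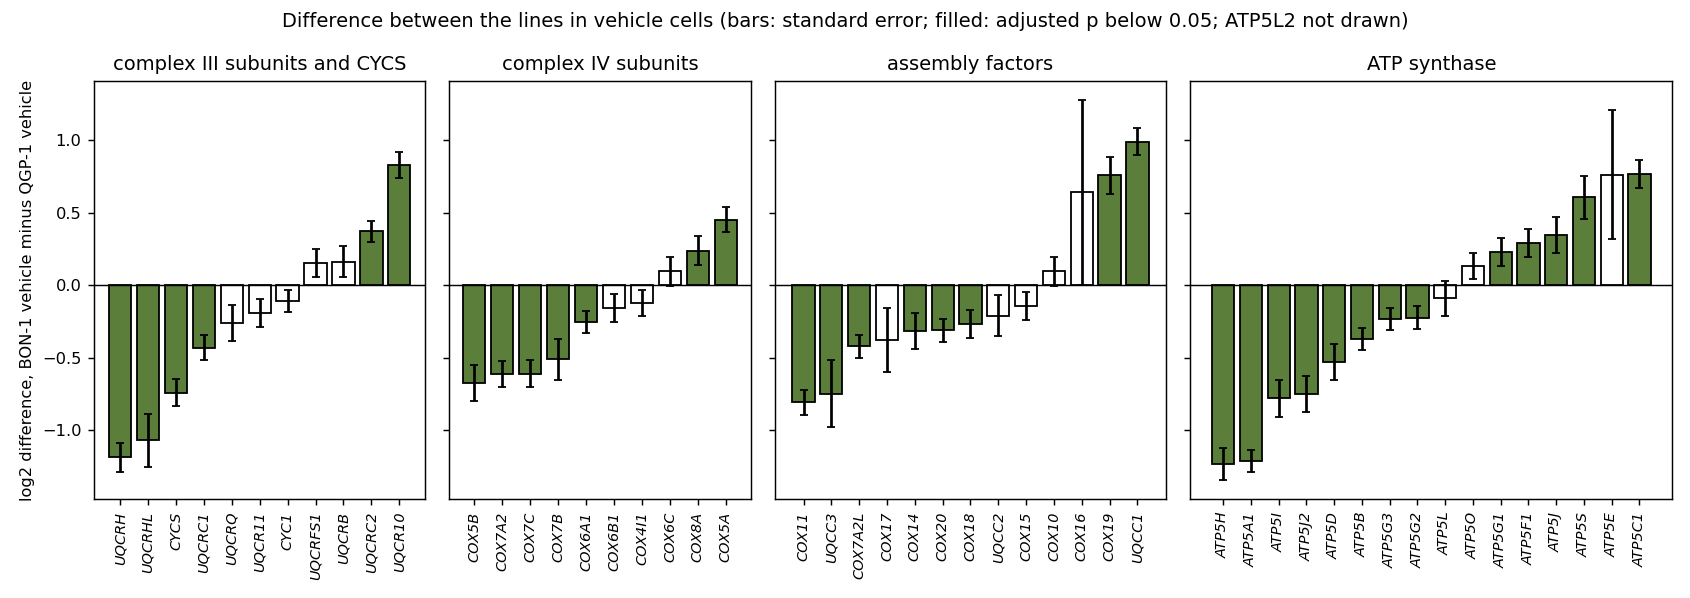
Log2 difference between BON-1 and QGP-1 vehicle cells (vertical axis) for each tested member but ATP5L2, by class. Bars show estimates from 3 against 3 libraries with standard errors, filled where the adjusted p is below 0.05. ATP5H, ATP5A1 and UQCRH reach below -1.1, and UQCC1 is highest at 0.99.

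Partners of the same machines that the symbols do not match were counted from lists. Of 39 symbols listed, alternative names of the same gene included, 35 had a row and all 35 were tested. In QGP-1 cells 8 were lower (22.9%, against 17.7% of all genes) and 2 higher (5.71%, against 17.3%), with a median log2 fold change of -0.16. In BON-1 cells 0 were lower by edgeR, against 18.3% of all genes, and 8 were higher (22.9%, against 17%), with a median of 0.05. At an unadjusted edgeR p below 0.05, 0 partners were lower in BON-1 cells, and DESeq2 called 0. ATPIF1, the inhibitor of ATP hydrolysis by the ATP synthase, was called higher in both lines, at 0.30 and 0.31, and is named here after its values were seen. In QGP-1 cells its call needed vehicle replicates 1 and 2 and DOX replicate 3, with 0.26 without vehicle replicate 2. Of 15 nuclear regulators of respiratory genes, 2 were lower and 1 higher in QGP-1 cells, and 2 were lower and 0 higher in BON-1 cells, with 1 higher at an unadjusted edgeR p below 0.05 and 0 by DESeq2. Of the factors that bind the promoter cores, GABPA, which binds ETS cores, was lower in QGP-1 cells at -0.21 (edgeR adjusted p = 0.0308). That call was lost when any 1 of the 6 libraries was left out. It was kept at -0.30 with the length trend removed (edgeR adjusted p = 0.00524). In BON-1 cells GABPA stood at -0.12, short of the threshold. NRF1 and YY1 passed in neither line, at 0.10 and 0.20 in QGP-1 and -0.19 and 0.03 in BON-1 cells, and YY1 was called higher in QGP-1 cells without the length trend (0.22). The other regulators called, named after their values were seen, were the coactivators PPARGC1A (-0.33) and PPRC1 (0.36) in the QGP-1 line, with the coactivator PPARGC1B (-0.81) and the mitochondrial transcription factor TFB2M (-0.31) in the BON-1 line. PPARGC1A (-0.53), PPARGC1B (-0.89) and PPRC1 (0.27) kept their calls once the length trend was removed. PPRC1 also kept its call whichever library was left out. PPARGC1A lost it without QGP-1 vehicle replicate 2 (-0.27) or DOX replicate 1, PPARGC1B without BON-1 vehicle replicate 2 or 3 (-0.72 without the latter) or DOX replicate 2, and TFB2M without any library but BON-1 DOX replicate 1 (-0.23 without DOX replicate 2) and also without the length trend.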

How the data were processed

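Stranded mRNA libraries of 12 cultures were aligned by the authors to GRCh38 with STAR. The authors deposited, for each line, raw counts per gene and a table of TPM values, which divide by gene length. The counting program and its strand and multi-mapping settings are not given in the sources used here. Of the 57 genes, 30 have pseudogenes named after them that may share reads. In GENCODE v44, 12 members overlap another gene on the same strand, among them COX17 with POPDC2 and COX19 with ADAP1. On the opposite strand 21 members overlap another gene, among them COX20 with HNRNPU. The part of such overlaps in the counts was not tested. Dose and vehicle are those stated for the study's inducible vectors, and groups came from the sample titles. All columns mapped to a sample.

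Counts were tested with edgeR 4.0.16 (R 4.3.3), with TMM scaling, filterByExpr and the quasi-likelihood F-test, within each line and jointly for the interaction and the vehicle comparison, with Benjamini-Hochberg adjustment over all genes tested. The p-values set each difference against the spread between triplicate cultures, which edgeR estimates with information shared across genes. They do not cover variation between separately transduced cells. CPM are scaled within a line except where both lines are compared. Members and lists were chosen with earlier results of these data known.

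Values in each library are given for the 3 most lowered and 3 most raised called members of each class and line, members with a called interaction of at least 0.5, the 5 largest differences between lines, isoform pairs, CYCS and members with opposite calls. Alternatives were DESeq2 1.42.0, other scalings and filters, a replicate block, limma 3.58.1 on log2(TPM + 1), each library left out in turn and, chosen after seeing the data, a fit without the trend on gene length and TPM centred on the median gene. Relative gene length was taken from the ratio of counts to TPM. The scripts were tested on simulated data.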

Additional observations from a re-analysis of the deposited data

Results flagged for a closer look

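The response to DOX differed between the lines, by the edgeR test of the interaction, for 19 members. Each value here is the log2 fold change in BON-1 cells minus that in QGP-1 cells. Among subunits of complex III and IV the differences were 0.39 for CYC1, 0.51 for UQCR10, 0.59 for COX6A1, 0.66 for COX7A2, 0.81 for COX7B and 0.55 for COX7C. In the ATP synthase group they were 0.64 for ATP5C1, 0.50 for ATP5F1, 0.53 for ATP5O, 0.34 for ATP5G3 and 0.65 for ATP5L. Among assembly factors they were 1.20 for UQCC2, 1.01 for COX17, 0.77 for COX14, 0.64 for COX20, 0.62 for COX7A2L and 0.44 for COX10, and the differences below 0 were -0.65 for COX19 and -3.49 for COX16. COX16 had 0 to 52 counts a library.

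Leaving out 1 library ended 7 of these calls. CYC1 was lost without BON-1 DOX replicate 1 (0.31) or QGP-1 DOX replicate 1, and ATP5F1 and ATP5L without BON-1 DOX replicate 1 (0.41 and 0.55) or BON-1 vehicle replicate 1. COX10 was lost without any 1 of 7 libraries, with 0.34 without BON-1 vehicle replicate 2. COX16, COX17 and ATP5G3 were each lost without any 1 of 8, with -2.43 and 0.25 for COX16 and ATP5G3 without QGP-1 DOX replicate 1 and 0.88 for COX17 without BON-1 DOX replicate 1. Cell line and medium cannot be told apart here.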

How the results depend on the processing

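Counts of members called lower and higher were 35 and 1 in QGP-1 and 15 and 8 in BON-1 cells. With the length trend removed they were 17 and 3 for QGP-1, 9 and 12 for BON-1, 4 lower in the interaction, and 16 lower and 16 higher between vehicle groups, where they were 23 and 12. On uncentred TPM, where the median gene shifted by 0.59 in QGP-1, -0.31 in BON-1, -0.88 in the interaction and 1.09 between vehicle groups, the counts were 4 and 29 in QGP-1, 1 and 0 in BON-1, 27 and 0 in the interaction, and 0 and 44 between vehicle groups. On centred TPM the numbers higher were 0 in QGP-1, 3 in BON-1 and 8 in the interaction. Library size alone left 5 higher in BON-1 cells. An adjusted p below 0.01 left 4 higher in BON-1 cells and 0 lower and 11 higher in the interaction. Replicate numbers did not pair the cultures (correlations of deviations from -0.07 to 0.11). The replicate block gave 36 and 1 in QGP-1, 14 and 8 in BON-1, and 1 and 17 in the interaction. Leaving out each library gave 32 to 35 lower and 1 to 1 higher in QGP-1, 10 to 18 lower and 4 to 9 higher in BON-1, 1 to 3 lower and 11 to 17 higher in the interaction, and 22 to 26 lower and 9 to 13 higher between vehicle groups. In BON-1 cells 5 were higher without vehicle replicate 1 or 3 and 4 without DOX replicate 1, and without BON-1 DOX replicate 1 the interaction held 11 higher. The interaction held 1 lower, not 2, without any QGP-1 vehicle replicate, QGP-1 DOX replicate 1, BON-1 vehicle replicate 1 or 2, or BON-1 DOX replicate 1 or 3.

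Signs turned for single genes. Without the length trend, QGP-1 values were 0.23 for UQCRHL, 0.31 for COX5A, 0.070 for COX6C, 0.058 for COX7A2, 0.085 for COX7C, -0.060 for COX18, 0.29 for ATP5G1, 0.27 for ATP5I and 0.0018 for ATP5L, BON-1 values 0.060 for UQCRH, 0.062 for COX6C, 0.013 for UQCC2 and 0.23 for ATP5I, and the vehicle difference 0.024 for COX6A1. COX16 in QGP-1 cells was at -0.21 with the replicate block, and on centred TPM COX19 was at -0.029, COX18 at -0.050 and COX5A at 0.057 in QGP-1 cells, with COX5A at 0.0035 by library size. COX7C in BON-1 cells was at -0.024 on centred TPM, -0.029 by library size and -0.00144 unfiltered, and COX17 in BON-1 cells at -0.039 by library size, -0.012 unfiltered and -0.00691 with at least 10 counts in every library. Leaving out each library, COX10 ran from -0.10 to 0.0052, COX16 from -1.01 to 0.45, UQCRB from -0.24 to 0.047, COX5A from -0.070 to 0.025 and COX18 from -0.083 to 0.067 in QGP-1 cells. In BON-1 cells UQCRH ran from -0.18 to 0.068, COX6C from -0.12 to 0.026, COX7C from -0.049 to 0.085, ATP5I from -0.17 to 0.029, UQCC2 from -0.21 to 0.0088, COX17 from -0.17 to 0.18, ATP5E from -0.066 to 0.34 and ATP5G1 from -0.013 to 0.14. The fit without the length trend shifts values by gene length through its construction. The cause of the other changes, those on TPM among them, was not tested.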

Other observations

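RNR1 and RNR2, 2 symbols that RefSeq gives to ribosomal RNAs of the mitochondrion, were also in the tables. They are no members and are named after their values were seen. Their identity was taken from the symbols alone, and whether these rows count mitochondrial RNA was not tested. RNR2, named for the large subunit RNA, had 6703, 8338 and 8532 counts in QGP-1 vehicle and 695, 730 and 3735 in QGP-1 DOX libraries. Its log2 fold change there was -2.17 (edgeR adjusted p = 0.00216). In BON-1 cells it had 327, 369 and 447 counts with vehicle and 594, 624 and 807 with DOX (log2 fold change 1.10, edgeR adjusted p = 5.54e-06). RNR1, named for the small subunit RNA, had a log2 value of -1.04 for QGP-1 and 1.45 for BON-1. The first did not pass the threshold (edgeR adjusted p = 0.0533). QGP-1 DOX replicate 3 stood apart from the other DOX libraries of that line in both. As the libraries were made from mRNA, ribosomal RNA is only what the selection left, and its part in these values was not tested.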
